A study of Homo sapiens with 2 samples.

Results

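The miRNAs described here are the mature products of the miR-192/miR-194 and miR-215/miR-194 clusters, which are known as p53-linked. They were chosen by name as both arms of miR-192 (hsa-miR-192-5p and hsa-miR-192-3p), both arms of miR-194 (hsa-miR-194-5p and hsa-miR-194-3p) and hsa-miR-215, and they are 5 of the 859 mature miRNAs in the count table. The table lists miR-215 without an arm suffix, and its sequence is that of miR-215-5p, while the name miR-215-3p is not listed. Small RNAs were sequenced from A549, an established human lung adenocarcinoma cell line grown in DMEM with serum. For 24 h before lysis the cells were held at 20% oxygen (normoxia) or at 1.2% oxygen (hypoxia). Each was represented by 1 library, and neither the labels nor the methods give a genetic change or a transfection for these cultures. Nothing says how many dishes stood behind a library, so the error between cultures is unknown, no test of the condition was possible and no p-value is given.

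miR-192 and miR-215 are close relatives that carry the same seed region, the stretch near the 5′-end that pairs with target mRNAs. miR-194 has an unrelated sequence but lies beside each of them in the genome, so each cluster can yield a miRNA of the first type together with miR-194 from one primary transcript. They are known for high levels in liver, intestine and kidney, where hepatocyte nuclear factors drive their transcription. p53 is also known to raise them, and miR-192 and miR-215 slow the cell cycle and repress MDM2, the ubiquitin ligase that degrades p53. A549 cells carry wild-type p53.

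The sequences show which members share a seed and which can be told apart by reads. They are the mature sequences of RefSeq (GRCh38.p14), 5′ to 3′, and all 5 were identical to those of the count table. Capitals mark the seed, bases 2 to 8.
miR-192-5p: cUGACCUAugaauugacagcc
miR-215: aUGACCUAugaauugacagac
miR-192-3p: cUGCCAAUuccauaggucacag
miR-194-5p: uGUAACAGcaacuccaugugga
miR-194-3p: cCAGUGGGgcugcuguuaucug

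miR-192-5p and miR-215 had 19 of 21 bases in common. They differed by C1A and C20A, with the base of miR-192-5p first and positions counted from its 5′-end, so that the seed UGACCUA was the same in both. No other listed mature miRNA had this seed. The seeds of miR-192-3p, miR-194-5p and miR-194-3p were each found in 0 other listed miRNAs. Turning miR-192-5p into miR-194-5p takes 14 single-base edits. Because so few bases separate miR-192-5p from miR-215, the split of reads between them depends on how mismatches were treated in counting, and their separate values are uncertain to that extent.

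In GRCh38, MIR192 is found on chromosome 11 from 64891137 to 64891246 and MIR194-2 from 64891355 to 64891439, both on the minus strand with 108 bases between them. GENCODE 29 places both within an exon of the lincRNA gene MIR194-2HG, which is transcribed in the same direction. The other pair is on chromosome 1, also on the minus strand, with MIR215 from 220117853 to 220117962 and MIR194-1 from 220118157 to 220118241. Both lie within an intron of the protein-coding gene IARS2, which encodes the mitochondrial isoleucyl-tRNA synthetase and is transcribed from the opposite strand. The nearest other annotated miRNA hairpin on the same strand was MIR6750, 6923 bases from MIR194-2, and its mature products are not listed in the table. The hairpins MIR192 and MIR215 were identical at 64 of 116 aligned positions (55.2%), and MIR194-1 and MIR194-2 at 58 of 88 (65.9%). The same alignment gave 48.2% for MIR192 and MIR194-2 and 53.6% for MIR194-1 and MIR215, pairs with unrelated mature sequences. The 55.2% is thus little above what unrelated hairpins gave.

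miR-194-5p is made with the same sequence by both MIR194 hairpins, so its count cannot be assigned to a chromosome. The table gives it a window on chromosome 1 alone, of 24 bases, which is the mature sequence with 1 further base at each end. The windows of both hairpins are shown with the flanking bases in capitals, and only these bases differ.
MIR194-1 (chromosome 1): GuguaacagcaacuccauguggaC
MIR194-2 (chromosome 11): CuguaacagcaacuccauguggaA
The 3p side does differ. The stretch of MIR194-1 closest to miR-194-3p differed from it at 5 of 22 bases, in capitals here, and miR-194-3p is annotated to MIR194-2 on chromosome 11 alone.
MIR194-1, 3p side: ccaguggAgAugcuguuaCUuU

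The normoxia library held 4514818 counts on mature miRNAs and the hypoxia library 8600160, and levels are given as CPM (counts per 1000000 mature counts). miR-21-5p alone took 72.2% and 68.4% of them, so all other CPM values shift with this miRNA. miR-210, a well-known target of the hypoxia-inducible factor, was 2.79-fold higher in hypoxia (954 CPM in normoxia, 2657 CPM in hypoxia). All 6 markers of a fixed epithelial list were listed and summed to 1168 and 1362 CPM, led by miR-200b-3p (880 and 1085 CPM). The other 5 summed to 288 and 277 CPM, and 3 of them (miR-141-3p, miR-429 and miR-205-5p) were lower in hypoxia. The liver miRNA miR-122-5p had 4 counts in each library. Of 6 blood markers 4 were listed and summed to 19.9 and 23.4 CPM, with miR-223-3p and miR-144-3p not listed. Of 4 muscle markers 2 were listed, at 0 counts in normoxia and 2.44 CPM together in hypoxia, with miR-1 and miR-206 not listed. The 3 nerve markers summed to 292 and 388 CPM, led by miR-128. The part of these in the members' values was not tested.

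All 5 members were detected in both libraries, and they differed in level by over 2 orders of magnitude. miR-192-5p, the main product of the MIR192 hairpin, was the most abundant, with 10008 counts or 2217 CPM in normoxia (95% interval 2174 to 2261) and 19649 counts or 2285 CPM in hypoxia (2253 to 2317). It ranked 34th of the 859 mature miRNAs in normoxia and 40th in hypoxia. miR-194-5p followed at 1043 CPM in normoxia (4710 counts, interval 1014 to 1073) and 1297 CPM in hypoxia (11156 counts, 1273 to 1321), ranks 56 and 49. These 2 miRNAs made up 65.3% and 30.8% of the members' counts in normoxia, and 60.8% and 34.5% in hypoxia. All intervals for levels are exact Clopper-Pearson intervals, and with a single library per condition they cover counting error only. They treat reads as independent. PCR copies were not marked by molecular identifiers, so the true counting error may be larger.

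The other members were far lower. miR-192-3p, from the opposite arm of the MIR192 hairpin, was at 89.3 CPM in normoxia (403 counts, 80.8 to 98.4) and 117 CPM in hypoxia (1006 counts, 109.9 to 124.4). miR-215, from chromosome 1, was at 36.8 CPM in normoxia (166 counts, 31.4 to 42.8) and 49.1 CPM in hypoxia (422 counts, 44.5 to 54.0). miR-194-3p, the only member that marks MIR194-2 alone, was the rarest at 6.20 CPM in normoxia (28 counts, 4.12 to 8.96) and 7.79 CPM in hypoxia (67 counts, 6.04 to 9.89). The order miR-192-5p, miR-194-5p, miR-192-3p, miR-215, miR-194-3p was the same in both libraries, and no intervals of neighbours in this order overlapped within a library.

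**Figure D1:**
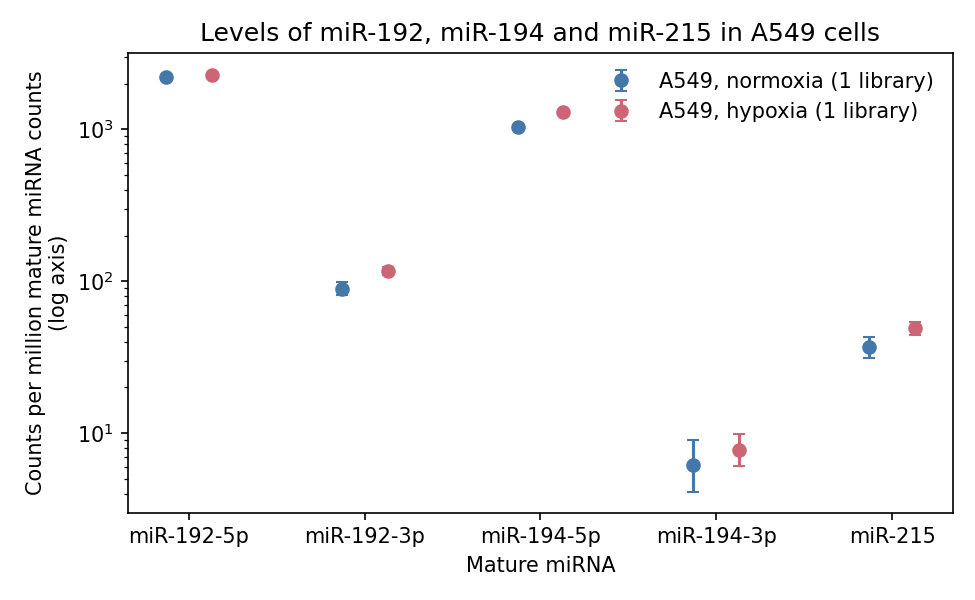
Level of each of the 5 members in A549 cells, in CPM on a log axis, for the normoxia library and the hypoxia library. Points are the values of single libraries and bars are exact 95% counting intervals, and miR-192-5p and miR-194-5p stand far above the other 3 members in both libraries.

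In normoxia the 5 members together gave 15315 counts, 0.339% of all mature counts (interval 0.334% to 0.345%). In hypoxia they gave 32300, or 0.376% (0.371% to 0.380%). Without miR-21-5p in the denominator the order turned, with 1.22% in normoxia and 1.19% in hypoxia. Summed by seed, UGACCUA (miR-192-5p and miR-215) reached 2253 CPM in normoxia and 2334 CPM in hypoxia, and held rank 24 and 27 of the 701 seeds in the table. The seed of miR-194-5p held rank 38 and 34. The 3 miRNAs nearest to miR-192-5p in level, by the distance of log2 CPM over the 2 libraries, were miR-10a-5p (2103 and 2240 CPM, distance 0.081), miR-99b-5p (2208 and 2502 CPM, 0.13) and miR-31-3p (1961 and 2662 CPM, 0.28). Those nearest to miR-194-5p were miR-484 (1006 and 1285 CPM, 0.053), miR-138-5p (1059 and 1184 CPM, 0.13) and miR-92b-3p (952 and 1248 CPM, 0.14). With 2 libraries this likeness describes little more than the level.

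The comparison of hypoxia with normoxia asks whether these miRNAs differed with oxygen. miR-192-5p was almost level, with a log2 ratio of hypoxia over normoxia of 0.044 (interval 0.009 to 0.078), or 1.03-fold. miR-194-5p was 1.24-fold higher in hypoxia, a log2 ratio of 0.31 (0.27 to 0.36). miR-192-3p was at 0.39 (0.22 to 0.56) and miR-215 at 0.42 (0.15 to 0.68), the highest of the 5. For miR-194-3p the ratio was 0.33, but its interval of -0.33 to 1.02 covers lower as well as higher values, so that no direction was detectable at this depth. These intervals are exact conditional binomial intervals for the counts of a miRNA in both libraries.

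The ratios depend on the scale. Over the 339 miRNAs with a mean log2 CPM above 3, the median log2 ratio was 0.079 and the quartiles were -0.22 and 0.39. Against that median miR-192-5p was lower by a small margin (-0.036), while miR-194-5p (0.24), miR-194-3p (0.25), miR-192-3p (0.31) and miR-215 (0.34) were higher. The median of the 5 members was 0.33, the value of miR-194-3p, and that of the 4 past the filter was 0.35. These medians weigh each member equally, whereas the summed counts of the 5 members gave 0.147 (0.119 to 0.175). With TMM factors, which moved every ratio by -0.11, miR-192-5p was at -0.071 and the other 4 members lay between 0.20 and 0.30. The sign of miR-192-5p was thus not fixed by these libraries. The counting intervals of miR-194-5p and miR-192-3p lay above 0 under every scaling tried. That of miR-215 reached below 0 (-0.042 to 0.49) when the most abundant miRNAs were left out of the totals, and that of miR-194-3p covered 0 under each scaling.

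**Figure D2:**
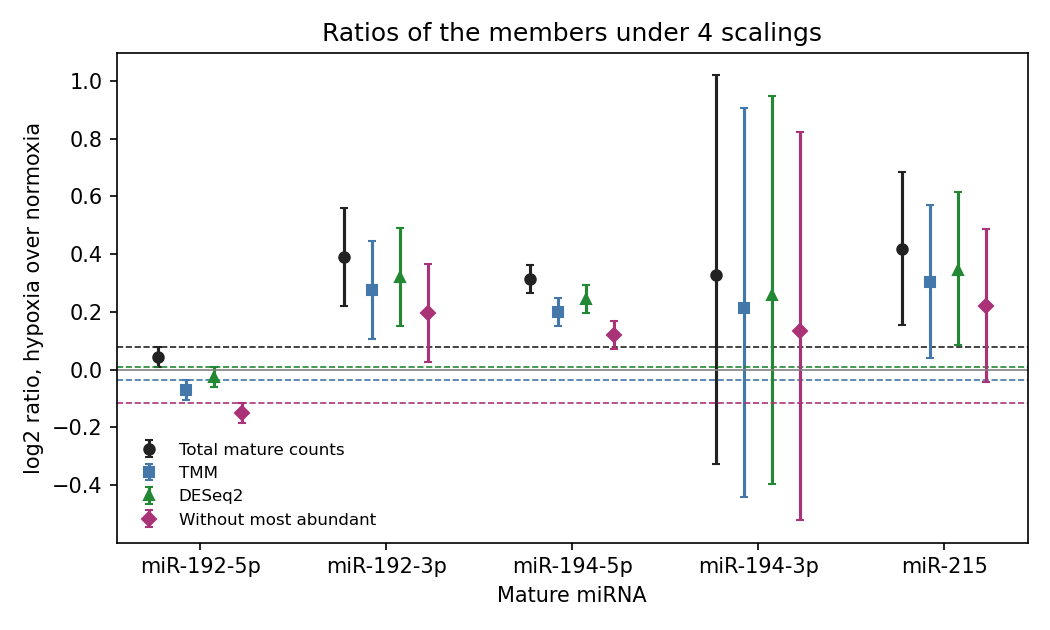
log2 ratio of hypoxia over normoxia for each member under 4 scalings, with exact 95% counting intervals as bars and, as dashed lines in the same colours, the median ratio of all miRNAs past the expression filter. miR-192-5p lies just below the median line of its scaling in all 4, and the other 4 members lie above theirs, with a wide interval for miR-194-3p.

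By a rule of size, an absolute log2 ratio of at least 0.9 with a mean log2 CPM above 3, 12 of the 859 mature miRNAs were higher in hypoxia (1.4%) and 11 were lower (1.28%). None of the 5 members was past it, and 4 of them passed the expression filter, with miR-194-3p below it. Over the 339 miRNAs past the filter, which alone can be called, the shares were 3.54% and 3.24%. A count of 0 of the 4 members past the filter is near that background. The split of all calls moved with the scale, from 52.2% higher of all called under total counts to 34.8% with TMM factors, 40.0% with DESeq2 size factors and 20.8% when the most abundant miRNAs were left out of the totals. For comparison, miR-210 had a log2 ratio of 1.48 (1.43 to 1.52).

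**Figure D3:**
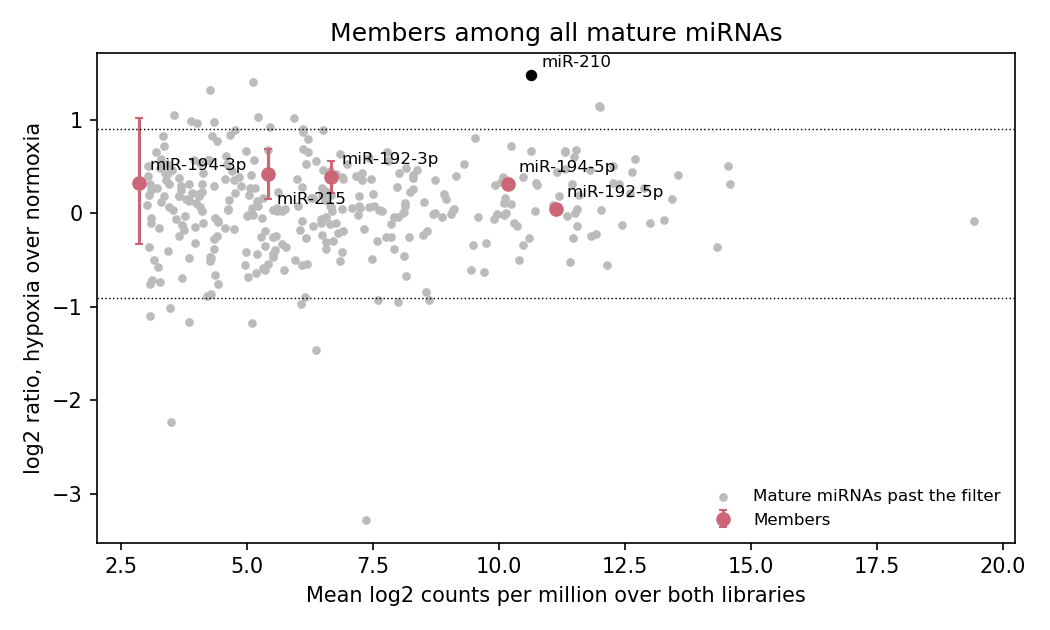
log2 ratio of hypoxia over normoxia against the mean log2 CPM of both libraries, with the 339 miRNAs past the expression filter in grey, the members in red with exact 95% counting intervals and miR-210 in black. Dotted lines mark the rule of size at 0.9 in either direction, and the 5 members lie between them, with the point of miR-194-3p left of the filter.

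Shares within a library do not depend on the scale. In the MIR192 hairpin the 3p arm took 3.87% of the counts of both arms in normoxia (3.51% to 4.26%) and 4.87% in hypoxia (4.58% to 5.17%). The odds ratio of hypoxia over normoxia was 1.27, with a counting interval above 1 (1.13 to 1.43). The log2 ratios of both arms differed by 0.35, and this was not unusual among the hairpins in these libraries: of 72 further hairpins whose arms both passed the filter, 44 differed as much or more, and the median absolute difference was 0.43. The 5p arm thus outnumbered the 3p arm by 24.8 to 1 in normoxia and 19.5 to 1 in hypoxia.

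For miR-194 the 3p arm took 0.591% of the counts of both arms in normoxia (0.393% to 0.853%) and 0.597% in hypoxia (0.463% to 0.758%), an odds ratio of 1.01 (0.64 to 1.63). This share mixes loci, as the 5p arm comes from both chromosomes and the 3p arm from chromosome 11. The less abundant arm took a median of 5.19% in normoxia and 5.28% in hypoxia over 143 other hairpins with both arms listed and at least 1 past the filter. It took as small a share as in miR-194 in 30 and 31 of them, and as small a share as in miR-192 in 65 and 71.

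**Figure D4:**
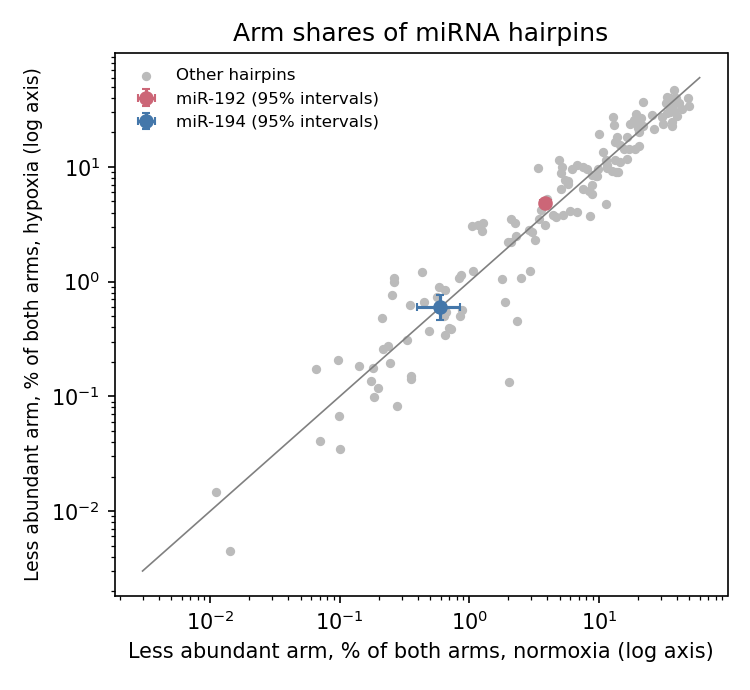
Share of the less abundant arm in the counts of both arms of a hairpin, in percent on log axes, in normoxia (horizontal) and hypoxia (vertical), for other hairpins in grey and for miR-192 and miR-194 with exact 95% intervals. The line marks equal shares, with miR-192 just above it and miR-194 on it, and hairpins with an arm at 0 counts in a library are not drawn.

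miR-194-5p was compared with miR-192-5p in the same way. miR-194-5p took 32.0% of the summed counts of miR-194-5p and miR-192-5p in normoxia (31.2% to 32.8%) and 36.2% in hypoxia (35.7% to 36.8%), an odds ratio of 1.21 (1.16 to 1.26). There were 2.12 counts of miR-192-5p per count of miR-194-5p in normoxia and 1.76 in hypoxia. This share mixes loci, as miR-194-5p comes from chromosomes 1 and 11 and miR-192-5p from chromosome 11, so it does not compare neighbours within a single cluster. Between the paralogs of a shared seed, miR-215 took 1.63% of the summed counts of miR-215 and miR-192-5p in normoxia (1.39% to 1.90%) and 2.10% in hypoxia (1.91% to 2.31%), an odds ratio of 1.29 (1.08 to 1.56). The 3 odds ratios whose intervals lie above 1 share the counts of miR-192-5p and are not independent of each other. The log2 ratios of miR-194-5p and miR-215 exceeded that of miR-192-5p by 0.27 and 0.37. Over all miRNAs past the filter the quartiles of the log2 ratio were -0.22 and 0.39. Differences of this size between miRNAs were thus not unusual in these libraries. Ligation and PCR act on each sequence separately in these libraries, and their part in the levels of arms, neighbours and paralogs was not tested.

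Other miRNAs known to be raised or processed under p53 were taken as a list of 12, of which 11 are listed and miR-605 is not. All 11 passed the expression filter, 0 were higher and 0 lower by the rule of size, which is near the background of 3.54% and 3.24% over the miRNAs past the filter. Their median log2 ratio was -0.15, from -0.55 for miR-141-3p to 0.58 for miR-1246. The median was 0.35 over the 4 members past the filter and 0.079 over all 339 miRNAs past it. These sets are unlike, as the list took a single arm of each miRNA and the 4 members include both arms of miR-192. Under total counts the members' summed counts had a log2 ratio of 0.147 (counting interval 0.119 to 0.175), with miR-192-5p as the largest part. miR-34a-5p, the best-known direct p53 target among miRNAs, was at 1167 CPM in normoxia and 1253 CPM in hypoxia, a log2 ratio of 0.10 (0.055 to 0.15). Its sign changed with the scale, to -0.012 with TMM factors and -0.093 when the most abundant miRNAs were left out of the totals. In normoxia it lay between miR-192-5p and miR-194-5p, and in hypoxia below both, with a counting interval (1230 to 1277) that overlaps that of miR-194-5p. miR-16-5p, whose processing p53 is known to promote, was the only listed miRNA of the list above miR-192-5p, at 3276 and 2289 CPM, and in hypoxia its interval (2258 to 2322) overlaps that of miR-192-5p. Its log2 ratio was -0.52 (-0.55 to -0.49). miR-145-5p, another miRNA of p53-promoted processing, was at 24.6 and 22.1 CPM with a log2 ratio of -0.15 (-0.50 to 0.20).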

How the data were processed

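The file the authors deposited holds unnormalized read counts of 5475 small RNA features for 1 normoxia and 1 hypoxia library, made with a ligation-based kit for SOLiD. For SOLiD data the methods name LifeScope with its small RNA pipeline and miRBase annotation, without naming this A549 experiment. The submitters' processing notes name build hg19, and no source used here tells how reads with several matches were counted. Every listed feature has at least 3 counts over both libraries. The 859 mature miRNAs were used, and their table windows were trimmed by 1 base at each end to obtain sequences, matched by name to RefSeq for 762, of which 718 were identical.

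Counts were scaled to all mature counts. Log2 ratios used no prior count, and exact 95% intervals came from scipy version 1.17.1 in Python version 3.11.15. Alternatives were TMM factors (edgeR version 4.0.16), size factors (DESeq2 version 1.42.0) in R version 4.3.3, totals leaving out the top 10 miRNAs of each library, prior counts of 0.5 and 2, thinning of the deeper library, and other filters, thresholds and denominators. The size rule takes thresholds that the methods state for selecting down-regulated genes in RNA sequencing. Here they were applied to miRNAs and in both directions, with a prior count of 2 for the mean level. The calculation was run on simulated counts that held counting error alone and planted changes larger than the size rule. This checked the code and does not bear on error between cultures or on ratios as small as the members'. Named miRNAs were the members, miRNAs of shared seed, the p53-linked list, miR-210, miR-21-5p, the nearest in level, neighbouring hairpins and markers from fixed tissue lists. Members and lists were chosen with earlier results of these data known.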

Additional observations from a re-analysis of the deposited data

Results flagged for a closer look

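Beside the mature miRNAs, the table counts reads on the whole hairpins, a measurement that no comparison above uses. The MIR192 hairpin had 24 counts in normoxia and 74 in hypoxia, MIR194-2 had 11 and 14, and MIR215 had 0 and 5. Counts above 3 exceed, within their own library, what a count of 0 allows. The 5 counts of MIR215 are 0.581 CPM in hypoxia, below the 0.664 CPM that its count of 0 in normoxia allows, so no difference between the libraries was detectable. MIR194-1 had 2 counts in each. Summed by locus, the hairpins of chromosome 11 received 35 counts and those of chromosome 1 received 2 in normoxia, against 88 and 7 in hypoxia. Scaled to mature counts, hypoxia stood to normoxia at a log2 ratio of 0.69 for the MIR192 hairpin (counting interval 0.014 to 1.42) and -0.58 for MIR194-2 (-1.83 to 0.70). Under each other scaling the interval of the MIR192 hairpin covered 0, as with TMM factors (0.58, -0.10 to 1.31). Which reads were counted on a hairpin in place of its mature arms is not stated in the sources read.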

How the results depend on the processing

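No paired analysis was possible because the design has no replicate, and no library could be left out. Of 63 alternative values, 45 stayed within the counting interval of the reported value (or, for counts of miRNAs, within 1.5 times) and 18 moved. The log2 ratio of miR-192-5p went from 0.044 to -0.071 with TMM factors, -0.027 with DESeq2 size factors, -0.15 without the most abundant miRNAs and -0.051 with all counts of the table as the total. That of miR-194-5p went from 0.31 to 0.20, 0.24, 0.12 and 0.22 in the same order, and that of miR-192-3p from 0.39 to 0.19 without the most abundant miRNAs. These moves follow from the scale alone, which shifts all ratios of a library pair equally. None of the 5 members passed the rule of size under any alternative tried, while among all miRNAs 12 were higher and 11 lower, against 5 and 19 without the most abundant miRNAs and 87 and 112 without a filter, and 7 lower with a threshold of 1. The members' share was 0.237% and 0.246% of all counts in the table, and 1.22% and 1.19% of mature counts without miR-21-5p, in place of 0.339% and 0.376%, so the order of the libraries turned with the last denominator. Prior counts and thinning moved no member's ratio beyond its interval. Depth limits miR-194-3p and the hairpin counts.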
